A study of Mus musculus with 9 samples.

Results

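The genes described here are 37 components of macroautophagy, of 46316 gene symbols in a count table from mouse pancreatic islets. They were taken by gene symbol and not by their measured values, though the list was made with earlier results of these data known. They comprise 7 genes of the initiating ULK complex and its relatives, 4 of the class III PI3K complexes, 6 for membrane supply and lipid transfer, 7 of the ubiquitin-like conjugation systems, 4 ATG4 proteases, 5 ATG8 proteins, 3 cargo receptors and the transcription factor Tfeb. Where a gene had several transcripts, the one with the highest total over all libraries was used. Of the 37 genes, 36 passed a filter on low counts and were tested among 16761 genes. Atg9b, a paralog of the vesicle protein gene Atg9a, did not pass, with 2, 8 and 1 raw counts for db/+, 7, 8 and 7 for untreated db/db and 7, 7 and 3 for treated db/db.

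Islets hold the insulin-secreting beta cells together with the other endocrine cells of the pancreas. RNA sequencing covered 3 samples of db/+ islets without treatment, 3 of db/db islets without treatment, and 3 of islets from db/db mice that were given imeglimin and metformin. The db allele is a mutation of the leptin receptor gene; homozygotes become obese and diabetic, and heterozygotes are their lean controls. Both drugs lower blood glucose. Neither drug alone, nor a treated db/+ group, was analysed here. The sources used here give no dose, treatment time, age or count of mice per sample. No label says whether a group's replicates are different animals, and p-values then reflect just how these samples varied, perhaps for technical reasons alone.

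In macroautophagy, the ULK1 kinase complex starts a membrane, the class III PI3K complex marks it with a phosphoinositide that WIPI proteins bind, and ATG9 vesicles and ATG2 bridges supply lipid. A pair of ubiquitin-like conjugation reactions, run by ATG7, ATG3, ATG10, ATG5, ATG12 and ATG16L1, then attaches ATG8 proteins (the LC3 and GABARAP families) to the membrane after ATG4 proteases have trimmed them. Receptors such as p62, encoded by Sqstm1, tie cargo to ATG8. In mice, loss of Atg7 in beta cells impairs insulin secretion, and autophagy is known as a support of beta cells under metabolic load. Transcript levels do not measure the flux of cargo through this pathway.

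Levels are CPM, a gene's counts scaled to a fixed library total, after TMM scaling, an edgeR normalisation for library composition, and the values of a group are in the order of its replicates 1, 2 and 3. Fold changes are on the log2 scale with standard errors, over 3 libraries in each group. Adjusted p-values come from edgeR's quasi-likelihood test with Benjamini-Hochberg adjustment over all 16761 genes, and "rose", "fell" and "called" refer to an adjusted p under 0.05. Libraries summed to between 10292664 and 15281806 counts over genes, and TMM factors ranged from 0.8155 in db/+ replicate 1 to 1.171 in untreated db/db replicate 1.

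The libraries carried the markers of islets. The summed level of 6 beta cell genes was 246378 to 446748 CPM for db/+, 152716 to 234245 for untreated db/db and 209146 to 233189 for treated db/db, so the db/+ range lay above both others. Summed levels of other cell types differed too: 9 acinar genes ranged from 2.04 to 93.2 CPM in db/+, 207 to 1763 in untreated db/db and 85.1 to 310.2 in treated db/db libraries; 5 stellate genes from 29.2 to 50.2, 95.7 to 310.0 and 73.6 to 195; 5 ductal genes from 424 to 532, 788 to 1488 and 676 to 949.5; 7 macrophage genes from 126 to 131, 158 to 199.6 and 144 to 162; and 6 endothelial genes from 383 to 418, 243 to 315 and 222 to 242. For 4 other endocrine genes the ranges overlapped, at 19208 to 28628, 17980.4 to 24173 and 9924 to 22294 CPM. Untreated db/db replicate 1 stood apart with 223 CPM over 10 lymphocyte genes, against 20.8 and 30.9 CPM in the other untreated db/db libraries, 8.67 to 13.3 in db/+ and 1.69 to 2.62 in treated db/db libraries; Cd3d, Cd3g, Cd8a and Ms4a1 were at 0 in all db/+ libraries, and Cd3g and Cd8a in all treated ones. The part of these cell types in the results below was not tested. In whole islets, fewer cells of a type and less RNA per cell cannot be told apart.

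Between untreated db/db and db/+ islets, autophagy genes changed in both directions at once. Of the 36 genes tested, 12 rose, 15 fell and 9 were not called, so 27 were called, where 63.2% of all genes tested were called, 31.3% higher and 32% lower. The median log2 fold change over the 36 was 0.03, and that of all genes tested was 0.02. The groups' CPM did not overlap for 26 of the 36, with untreated db/db islets the higher group for 11 and the lower for 15, against 67% of all genes tested, 33% higher and 34.1% lower. Rises and falls were near equal in number, as they were over all genes tested. The counts by role given below are to be read beside these shares of all genes. In some families paralogs went opposite ways: Map1lc3a and Gabarap fell while Map1lc3b, Gabarapl1 and Gabarapl2 rose. Atg4b and Atg4d fell while Atg4a and Atg4c rose, Wipi2 fell while Wipi1 rose, and Ulk3 and Ulk4 fell while Ulk2 rose. Other paralogs did not part so: Atg16l1 and Atg16l2 both fell, and Ulk1 and Atg2b were not called. How often paralogs part over all genes was not tested.

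**Figure D1:**
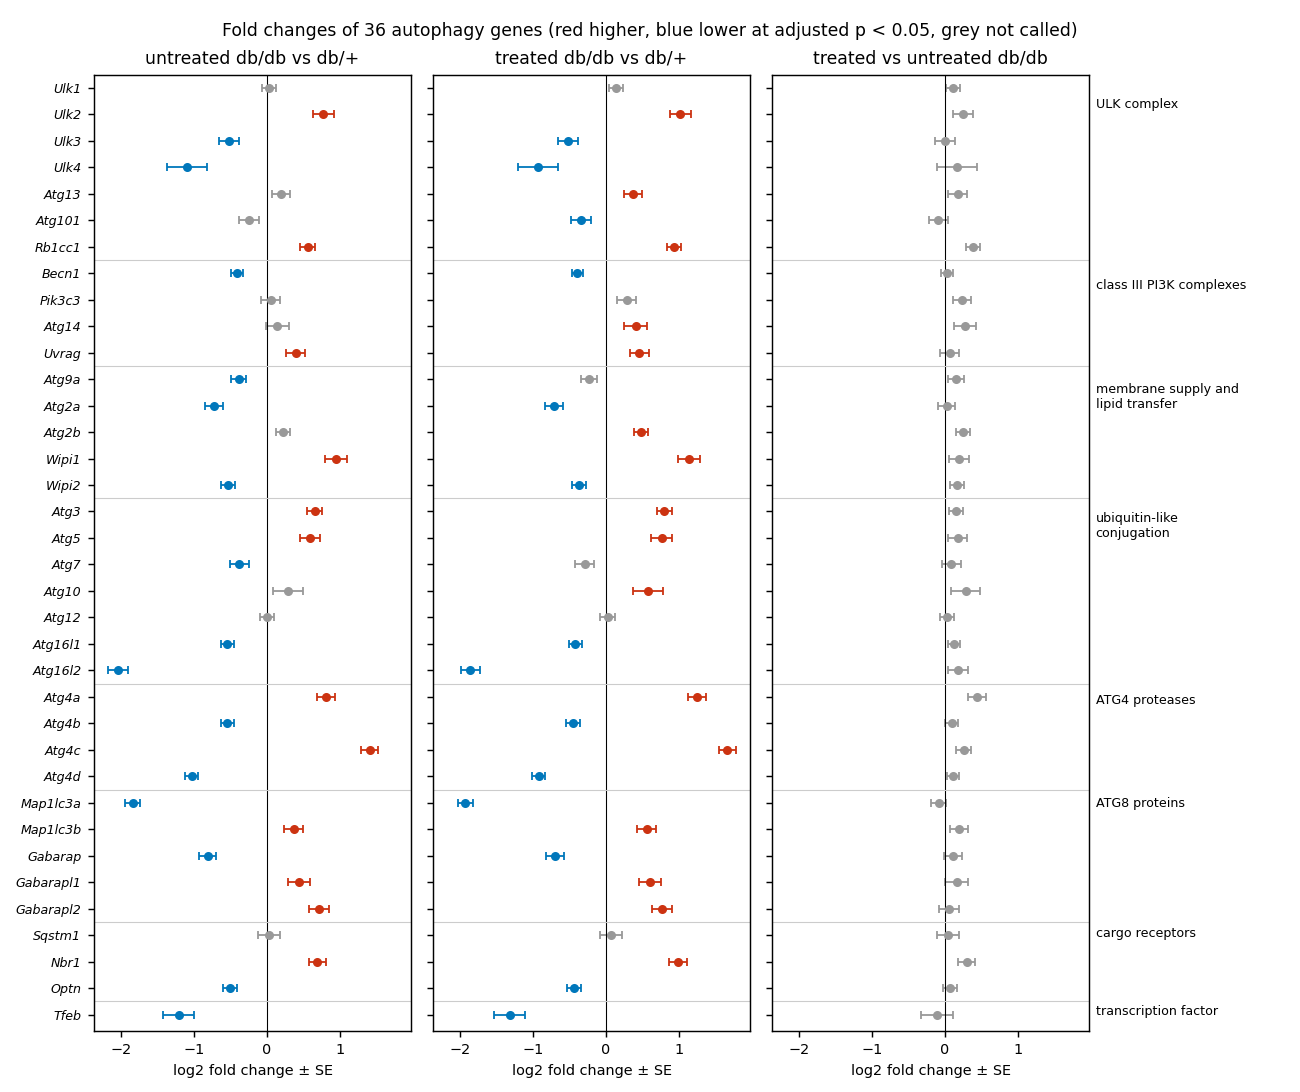
Log2 fold change with its standard error (x axis) of 36 autophagy genes (rows, grouped by role) in the 3 comparisons, each of 3 libraries against 3. Against db/+ islets, 12 rose and 15 fell for untreated db/db and 16 rose and 14 fell for treated db/db islets, and 0 passed the edgeR test between treated and untreated db/db islets.

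The ATG8 proteins are the tags that the pathway puts on membranes, and all 5 genes measured were called, where 63.2% of all genes tested were. Map1lc3a, which encodes LC3A, was at 103, 103 and 86.8 CPM for db/+, 24.3, 28.1 and 29.2 CPM for untreated db/db and 24.97, 26.7 and 25.4 CPM for treated db/db. All db/db libraries lay far below all db/+ libraries, and the log2 fold change in untreated db/db islets was -1.84 ± 0.10 (adjusted p = 6.32e-08), or 0.279 times the db/+ level. Gabarap was at 533, 486 and 408 CPM for db/+, 237, 294 and 282 CPM for untreated db/db and 289, 290.0 and 299 CPM for treated db/db. It fell by 0.81 on the log2 scale (SE 0.12, adjusted p = 7.85e-05), without overlap between the groups. Gabarap and Map1lc3a were the only ATG8 genes to fall.

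Gabarapl2, also known as GATE-16, was at 76.2, 57.2 and 48.4 CPM for db/+, 93.4, 103 and 102 CPM for untreated db/db and 100.02, 107 and 102 CPM for treated db/db. It rose by 0.71 ± 0.14 (adjusted p = 0.000548), and every db/db library exceeded every db/+ library. Gabarapl1 was at 252, 175 and 177 CPM for db/+, 228, 314 and 277 CPM for untreated db/db and 304, 288 and 324 CPM for treated db/db. Its rise in untreated db/db islets was 0.44 ± 0.15 (adjusted p = 0.0229), but db/+ replicate 1 lay above untreated db/db replicate 1. The call was lost without db/+ replicate 2 (0.36, adjusted p = 0.0752), db/+ replicate 3 (0.40, 0.0522), untreated db/db replicate 2 (0.34, 0.0917) or untreated db/db replicate 3 (0.44, 0.0525).

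Map1lc3b encodes LC3B, the form most used as an autophagosome marker. It was at 121, 105 and 97.6 CPM for db/+, 119, 151 and 148 CPM for untreated db/db and 147, 147 and 183 CPM for treated db/db. The rise of 0.37 ± 0.13 (adjusted p = 0.0251) between untreated db/db and db/+ islets was smaller than the opposite change of Map1lc3a, and db/+ replicate 1 lay above untreated db/db replicate 1. It did not pass without db/+ replicate 2 (0.35, adjusted p = 0.0541), untreated db/db replicate 2 (0.31, 0.0809) or untreated db/db replicate 3 (0.33, 0.0760), nor with the replicate number as a block (0.36, 0.0512).

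Per kilobase of the transcript counted, so that levels can be set between genes, the 5 ATG8 genes together held 735 ± 103.6 CPM per kb in db/+ islets, 577 ± 64.6 in untreated db/db islets and 625 ± 20.9 in treated db/db islets (mean ± SD, n = 3). The sums of all untreated db/db libraries lay below those of all db/+ libraries, and the composition differed too. Gabarap made up 57.8 ± 1.49% of it in db/+ islets, 41.8 ± 0.24% in untreated and 41.7 ± 0.64% in treated db/db islets. Map1lc3a made up 12.8 ± 0.92%, 4.52 ± 0.22% and 3.94 ± 0.21%. Gabarapl1 took 15.4 ± 1.72%, 26.6 ± 1.35% and 27.5 ± 0.93%, and Gabarapl2 took 8.34 ± 0.79%, 17.6 ± 1.13% and 16.9 ± 0.91%. Map1lc3b stood at 5.76 ± 0.22%, 9.41 ± 0.24% and 9.92 ± 0.95%. Per kilobase, Map1lc3b RNA thus outweighed Map1lc3a RNA in every db/db library, while Map1lc3a outweighed Map1lc3b in every db/+ library. The order in db/+ islets depends on the transcript lengths used, 2560 bases for Map1lc3b and 1045 for Map1lc3a. In CPM, Map1lc3b was the higher in every db/+ library too. For each of the 5 shares, no untreated db/db library overlapped the db/+ libraries, which gives p = 0.1 in a two-sided exact permutation test, the smallest that 3 against 3 can give (adjusted p = 0.147 over 75 such tests in 6 families). Of all genes tested, 67% did not overlap in this comparison. The 5 shares are parts of 1 sum, so they are not separate results.

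**Figure D2:**
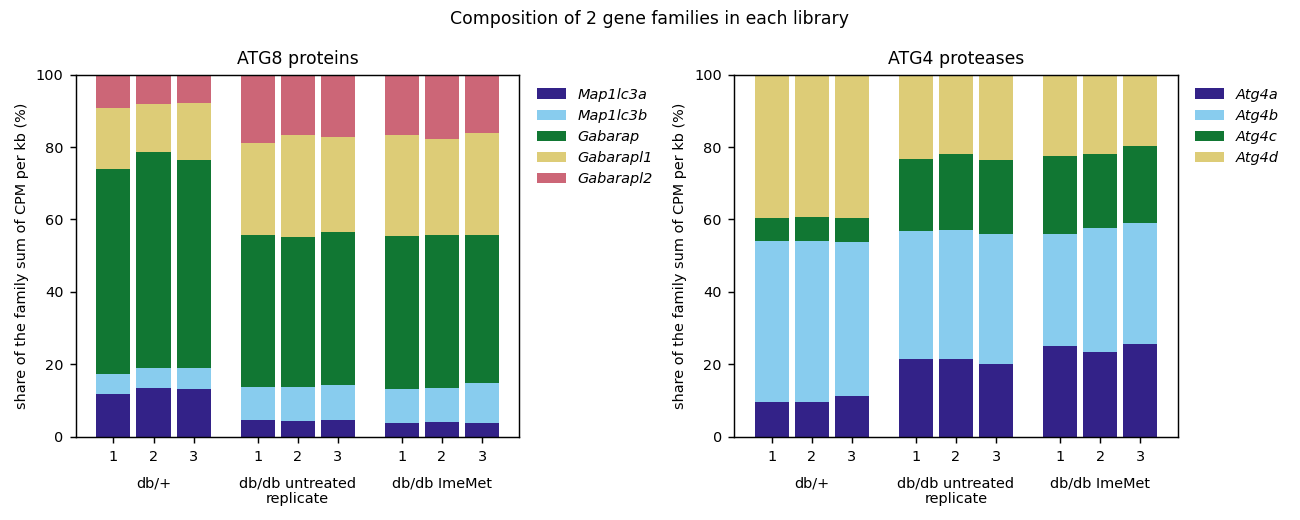
Share of each paralog (stacked bars, %) in the summed CPM per kb of the ATG8 and ATG4 genes in each of 9 libraries. In the db/+ libraries Gabarap holds 56.5 to 59.4% of the ATG8 sum and Map1lc3a 11.7 to 13.5%, against 41.6 to 42.1% and 4.27 to 4.69% in the untreated db/db libraries, and Atg4c holds 6.21 to 6.62% of the ATG4 sum against 19.8 to 20.8%.

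The ATG4 cysteine proteases trim ATG8 proteins before conjugation and release them from membranes afterwards, and these 4 genes moved in opposing pairs. Atg4c was at 9.01, 8.97 and 9.33 CPM for db/+, 22.2, 26.1 and 24.0 CPM for untreated db/db and 29.1, 26.1 and 31.4 CPM for treated db/db. This was the largest rise among the 36 genes, 1.41 ± 0.12 (adjusted p = 6.64e-07) or 2.65 times the db/+ level, with no overlap. Atg4a was at 10.6, 9.89 and 12.0 CPM for db/+, 18.4, 20.4 and 18.1 CPM for untreated db/db and 25.7, 22.9 and 28.8 CPM for treated db/db. It rose by 0.81 ± 0.13 (adjusted p = 0.000116), and the 3 groups lay in 3 separate ranges.

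Atg4d was at 54.8, 51.0 and 53.2 CPM for db/+, 24.8, 26.3 and 26.5 CPM for untreated db/db and 29.0, 27.1 and 27.9 CPM for treated db/db. It fell by 1.03 on the log2 scale (SE 0.09, adjusted p = 7.39e-07), and the lowest db/+ library was far above the highest db/db library. Exons of Kri1, a gene on the opposite strand, overlap those of Atg4d by 792 bases; Kri1 also fell (log2 fold change -1.30), from 75.4 to 30.6 CPM. Because no source used here gives the strand setting of the counting, reads of this stretch cannot be told apart. Atg4b, the member held to be the most active protease on LC3, fell less, by 0.54 (SE 0.09, adjusted p = 0.000237). Within the family sum of CPM per kb, Atg4b and Atg4d held 43.8 ± 1.16% and 39.6 ± 0.19% in db/+ islets but 35.6 ± 0.29% and 23.0 ± 0.80% in untreated db/db islets. Atg4a went from 10.1 ± 0.94% to 21.1 ± 0.77%, and Atg4c from 6.48 ± 0.23% to 20.3 ± 0.48%.

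Of the 7 conjugation genes 2 rose, 3 fell and 2 were not called, with both ATG16 homologs among those that fell. ATG16L1 sets the place of ATG8 conjugation, and ATG16L2 is its less understood paralog. Atg16l2 was at 97.5, 131 and 146 CPM for db/+, 28.9, 31.6 and 30.7 CPM for untreated db/db and 37.5, 31.4 and 34.5 CPM for treated db/db. The 6 db/db libraries lay between 28.9 and 37.5 CPM, all below every db/+ library, and the log2 fold change of -2.04 ± 0.14 (adjusted p = 1.79e-07) was the largest fall among the 36 genes. Its exons overlap those of Fchsd2, on the opposite strand, by 25 bases, and Fchsd2 rose by 1.17. Atg16l1 also fell, by 0.54 (SE 0.09, adjusted p = 0.000134). Summed per kilobase, the pair went from 34.6 ± 4.19 to 14.4 ± 0.13 CPM per kb, and Atg16l2 from 60.7 ± 4.99% to 35.8 ± 1.77% of it.

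Atg3, the E2-like enzyme that passes ATG8 to its lipid, was at 28.6, 25.6 and 25.6 CPM for db/+, 40.9, 44.0 and 40.5 CPM for untreated db/db and 46.6, 41.9 and 50.4 CPM for treated db/db. It rose by 0.65 ± 0.10 (adjusted p = 9.97e-05), with no overlap. Atg5, which joins ATG12 in the E3-like complex, was at 21.3, 14.3 and 16.7 CPM for db/+, 24.6, 28.2 and 25.8 CPM for untreated db/db and 26.6, 30.5 and 31.4 CPM for treated db/db. It rose by 0.59 ± 0.14 (adjusted p = 0.00248), with every db/db library above every db/+ library. Atg7, the E1-like enzyme that both conjugation systems need, fell by 0.38 (SE 0.13, adjusted p = 0.0246). The call on Atg7 was lost without db/+ replicate 1 (-0.28, adjusted p = 0.103), db/+ replicate 3 (-0.33, 0.0739), untreated db/db replicate 1 (-0.27, 0.107) or untreated db/db replicate 2 (-0.37, 0.0593). It was also lost with DESeq2 (-0.35, adjusted p = 0.0519), upper-quartile factors (-0.27, 0.0802), no filter on low counts (-0.27, 0.153) and the sum of transcripts, which gave the smallest Atg7 value (-0.13, 0.319). Atg12 (0.00 ± 0.10, adjusted p = 0.987) and Atg10 (0.28 ± 0.21, adjusted p = 0.243), the E2-like enzyme for ATG12, were not called; without db/+ replicate 1 Atg10 was (0.66, adjusted p = 0.00633).

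Promoters of 4 conjugation genes are shown, 3 because they hold the motif of the factor Tfeb, described below, and that of Atg16l2 because this gene fell most. Of the 37 genes, 31 matched the RefSeq promoter table (build GRCm38.p6), and the 250 bases before the start site were searched on both strands. CACGTG, the E-box core bound by TFEB and its relatives, was in 3 of 31, Atg3, Atg5 and Atg7, which is 9.68%, against 9.38% of 12365 tested genes with a promoter. GTAAACA, a core for FOXO factors, was in 0 of 31 and 2.89%. TGACGTCA, the cAMP response element, was in 1 of 31, Atg16l2, and 2.90%. The windows are Atg3 at chr16:45158579-45158828 on the plus strand, Atg5 at chr10:44268089-44268338 on the plus strand, Atg7 at chr6:114670846-114671095 on the plus strand and Atg16l2, the gene with the largest fall, at chr7:101302089-101302338 on the minus strand. Each is printed 5′ to 3′, with CACGTG in capitals for Atg3, Atg5 and Atg7 and TGACGTCA in capitals for Atg16l2.
Atg3: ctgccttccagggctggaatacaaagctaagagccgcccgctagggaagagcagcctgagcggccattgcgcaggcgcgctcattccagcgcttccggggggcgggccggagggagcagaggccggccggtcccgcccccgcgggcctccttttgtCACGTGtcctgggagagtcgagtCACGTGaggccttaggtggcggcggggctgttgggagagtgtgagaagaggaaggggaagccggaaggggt
Atg5: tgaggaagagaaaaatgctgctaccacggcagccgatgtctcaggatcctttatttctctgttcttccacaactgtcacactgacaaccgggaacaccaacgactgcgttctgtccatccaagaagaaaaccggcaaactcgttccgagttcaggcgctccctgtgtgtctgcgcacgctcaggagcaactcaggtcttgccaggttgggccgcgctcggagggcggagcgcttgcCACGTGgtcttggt
Atg7: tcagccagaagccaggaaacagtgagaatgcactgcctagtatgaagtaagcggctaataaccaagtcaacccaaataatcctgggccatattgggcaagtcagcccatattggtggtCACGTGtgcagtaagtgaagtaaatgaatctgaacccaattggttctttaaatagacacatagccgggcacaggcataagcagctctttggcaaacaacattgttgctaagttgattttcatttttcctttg
Atg16l2: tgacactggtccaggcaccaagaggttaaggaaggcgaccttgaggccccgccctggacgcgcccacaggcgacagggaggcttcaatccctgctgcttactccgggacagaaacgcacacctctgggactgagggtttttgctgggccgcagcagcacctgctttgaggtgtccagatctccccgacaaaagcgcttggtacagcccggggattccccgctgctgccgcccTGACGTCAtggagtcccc
The first base of the motif lies 94 and 71 bases before the start site in Atg3, 14 in Atg5, 132 in Atg7 and 18 in Atg16l2. Atg3 and Atg5 rose and Atg7 fell, though the call on Atg7 was lost under several alternatives, as given above. Whether the motif bears on these changes was not tested.

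In the initiating complex and its relatives 2 genes rose, 2 fell and 3 were not called. Rb1cc1, which encodes the scaffold FIP200, was at 40.3, 41.7 and 40.4 CPM for db/+, 54.2, 65.9 and 59.8 CPM for untreated db/db and 73.1, 76.3 and 84.8 CPM for treated db/db. It rose by 0.56 ± 0.10 (adjusted p = 0.000294), and the 3 groups lay in 3 separate ranges, treated db/db highest. Ulk2, a kinase with functions shared with ULK1, was at 28.8, 33.1 and 23.0 CPM for db/+, 43.4, 54.2 and 47.4 CPM for untreated db/db and 50.9, 56.0 and 65.4 CPM for treated db/db. It rose by 0.77 ± 0.14 (adjusted p = 0.000425), with no overlap between db/+ and db/db. Ulk1 itself was not called (0.03 ± 0.10, adjusted p = 0.795), nor were the subunit genes Atg13 (0.19 ± 0.13, 0.194) and Atg101 (-0.25 ± 0.14, 0.124). Atg13 was called without db/+ replicate 1 (0.38, adjusted p = 0.0140).

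Ulk3 and Ulk4 share the kinase domain but are better known outside bulk autophagy. Ulk4 was at 4.45, 3.36 and 3.77 CPM for db/+, 2.05, 1.32 and 2.06 CPM for untreated db/db and 1.83, 1.896 and 2.32 CPM for treated db/db. It fell by 1.10 (SE 0.27, adjusted p = 0.00361), with no overlap. Its exons overlap by 475 bases with the opposite-strand gene Ctnnb1, which averaged 371 CPM over all libraries against 2.56 for Ulk4 and rose by 0.94, and the part of such reads was not tested. Ulk3 fell by 0.53 (SE 0.14, adjusted p = 0.00477). In the summed CPM per kb of the 4 kinases, which was 19.1 ± 1.23 in db/+ and 18.8 ± 0.65 in untreated db/db islets, Ulk1 held 49.6 ± 0.998% and 51.4 ± 2.01%. Ulk2 went from 13.9 ± 2.33% to 23.9 ± 2.00% and Ulk3 from 31.7 ± 3.15% to 22.4 ± 1.504%.

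Of the 4 class III PI3K genes, 1 rose, 1 fell and 2 were not called. Becn1, the regulatory subunit Beclin 1, fell by 0.41 (SE 0.08, adjusted p = 0.000615), from 126 ± 4.68 to 94.8 ± 2.31 CPM (mean ± SD). Uvrag, whose product directs the complex to endosomes, rose by 0.39 ± 0.13 (adjusted p = 0.0184); the call was lost without db/+ replicate 2 (0.33, 0.0677) or untreated db/db replicate 1 (0.35, 0.0506). The lipid kinase gene Pik3c3 (0.05 ± 0.13, adjusted p = 0.740) and Atg14 (0.14 ± 0.16, 0.449), the subunit for autophagosomes, were not called.

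Among the genes for membrane supply, 1 rose, 3 fell and 1 was not called, and the WIPI pair parted. Wipi1 was at 18.3, 19.3 and 14.99 CPM for db/+, 26.5, 37.4 and 37.4 CPM for untreated db/db and 34.4, 38.8 and 42.5 CPM for treated db/db. It rose by 0.95 ± 0.15 (adjusted p = 0.000142), with no overlap. Wipi2, whose product recruits the ATG16L1 complex, fell by 0.53 (SE 0.10, adjusted p = 0.000381), from 129.6 ± 4.06 to 89.5 ± 10.2 CPM. Their sum per kilobase was 40.7 ± 2.08 CPM per kb in db/+ and 40.0 ± 5.81 in untreated db/db islets, and Wipi1 went from 23.6 ± 1.96% to 46.2 ± 2.51% of it.

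The lipid transfer gene Atg2a was at 43.6, 52.4 and 60.8 CPM for db/+, 30.9, 33.7 and 29.8 CPM for untreated db/db and 29.3, 31.9 and 34.7 CPM for treated db/db. It fell by 0.73 (SE 0.12, adjusted p = 0.000200), with no overlap, but it has a GC content of 60.0% and lost the call once GC content was adjusted for (below). Its paralog Atg2b was not called (0.22 ± 0.10, adjusted p = 0.0590), though its groups did not overlap. Atg2b was called without db/+ replicate 1 (0.38, adjusted p = 0.00301), db/+ replicate 3 (0.28, 0.0355) or untreated db/db replicate 1 (0.27, 0.0464). Atg9a fell by 0.39 (SE 0.11, adjusted p = 0.00648), but was not called with no filter on low counts (-0.28, 0.0531) or once GC content was adjusted for (-0.07, 0.535); its exons overlap by 46 bases with Ankzf1 on the opposite strand, which fell from 54.9 to 15.6 CPM. In all, exons of 14 of the 37 genes overlap those of another gene, and for 9 the other gene codes for a protein; among these are Atg2b (383 bases, with Gskip), Becn1 (1297, with Cntd1), Map1lc3b (58, with Zcchc14) and Sqstm1 (580, with Mrnip). How such reads were assigned is not stated in the sources used.

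The cargo receptors went 3 ways. Sqstm1, which encodes p62, had the highest level per kilobase of the 37 genes in every group, 474 ± 97.6 CPM per kb in db/+, 482 ± 48.7 in untreated and 497 ± 41.6 in treated db/db islets. In CPM it was at 1189.9, 859.7 and 835 CPM for db/+, 870.0, 1064 and 1000.1 CPM for untreated db/db and 1099, 932 and 998 CPM for treated db/db. Its groups overlapped and it was not called (0.02 ± 0.15, adjusted p = 0.895), with a 95% interval of -0.30 to 0.35. This rests on db/+ replicate 1, which was the highest of the 9 libraries: without it the difference was 0.29 (adjusted p = 0.0268). Leaving that library out also moved the median of all genes by 0.086.

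Nbr1, a receptor with a domain structure like that of p62, was at 170.0, 142 and 131 CPM for db/+, 214, 264 and 236 CPM for untreated db/db and 284, 278 and 315 CPM for treated db/db. It rose by 0.69 ± 0.12 (adjusted p = 0.000280), and every db/db library exceeded every db/+ library. Optn, the receptor optineurin, which acts in mitophagy, fell by 0.50 (SE 0.10, adjusted p = 0.000594).

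Tfeb encodes a transcription factor that drives lysosomal and autophagy genes when TORC1 is inactive, and its activity is set mainly by where the protein lies in the cell. Tfeb was at 8.41, 12.9 and 14.5 CPM for db/+, 5.99, 4.60 and 4.91 CPM for untreated db/db and 5.15, 4.64 and 4.58 CPM for treated db/db. It fell by 1.21 (SE 0.21, adjusted p = 0.000289), or to 0.432 times the db/+ level, and no db/db library reached the lowest db/+ library.

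**Figure D3:**
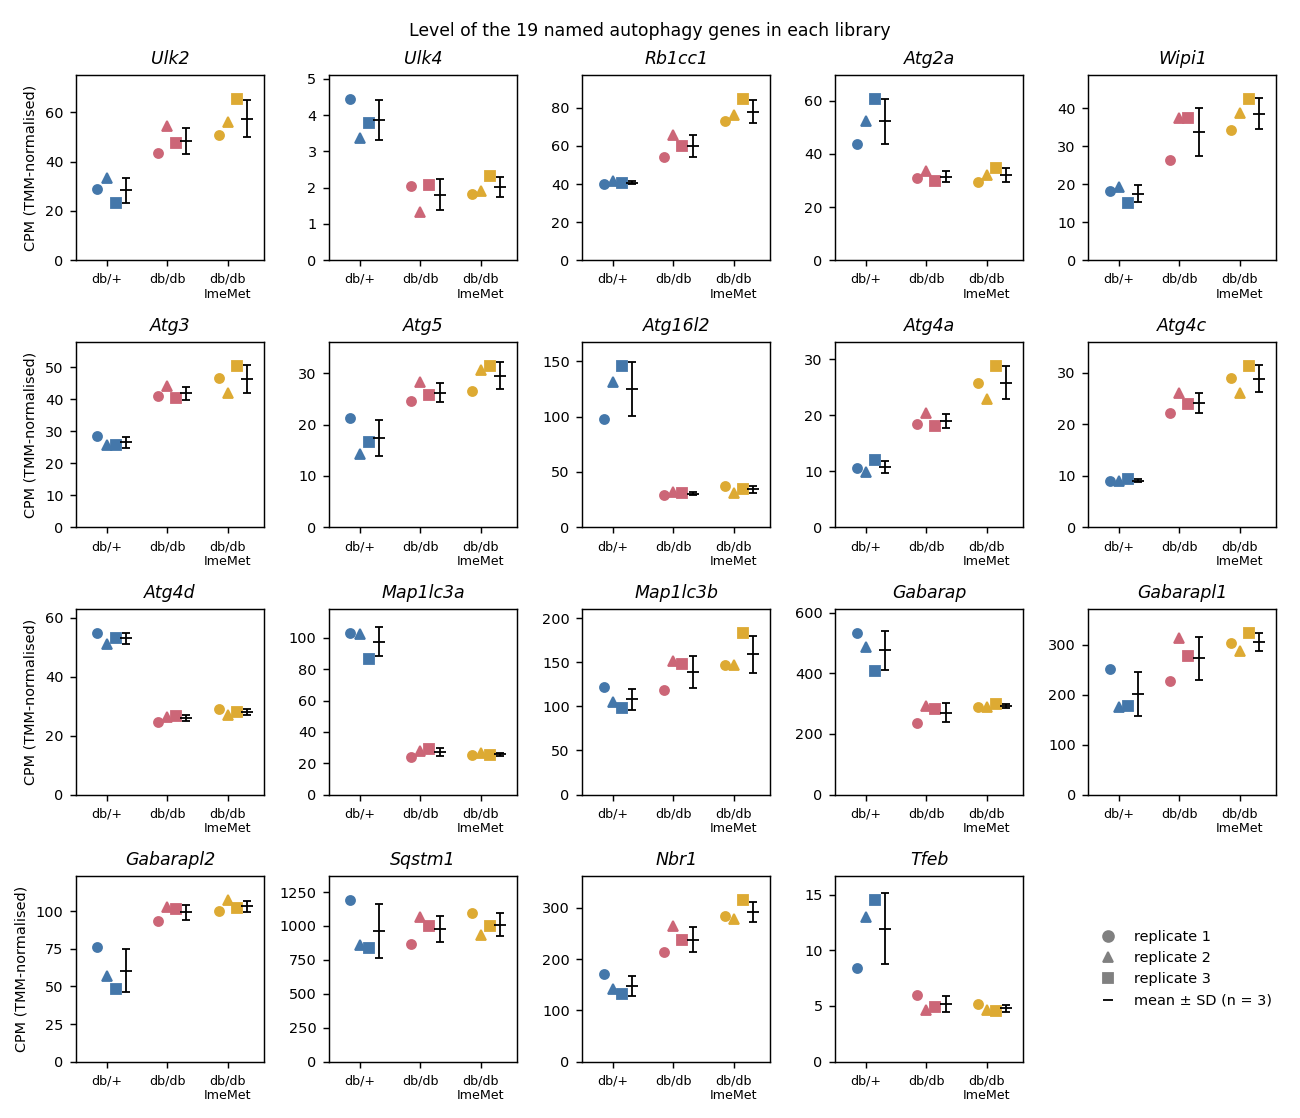
CPM after TMM scaling (y axis, from 0) of 19 autophagy genes in each library, with the mean ± SD of 3 libraries beside each group. Map1lc3a, Gabarap, Atg16l2, Atg4d and Tfeb are lower in all 6 db/db libraries than in any db/+ library, Atg4a, Atg4c, Wipi1, Ulk2 and Nbr1 are higher, and db/+ replicate 1 is the highest library for Sqstm1.

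Treated and untreated db/db islets were compared to ask which autophagy genes differ with the drug pair. No autophagy gene passed edgeR's test, 0 higher and 0 lower of 36, where 0.179% of all genes tested passed, 0.00597% higher and 0.173% lower. At an unadjusted p under 0.05 there were 5, against 17.4% of all genes tested. DESeq2 called 1, Rb1cc1 (0.34, adjusted p = 0.0327), where it called 3.77% of genes, and limma voom called 0, where it called 0.0418%. Of the 36 values 33 were above 0, as were 61.8% of all genes tested, with a median of 0.15 against 0.07 for all genes tested. Both shares moved with the processing: over the alternatives, 25 to 33 of the 36 and 49.2% to 62.6% of all genes were above 0. Groups did not overlap for 8 genes, all higher in treated islets, where 27.6% of all genes tested did not overlap and 19% did so with treated islets higher. These 8 were Rb1cc1, Atg9a, Atg2b, Atg16l1, Atg4a, Atg4c, Atg4d and Nbr1. Over the 36 genes the 95% intervals of the fold change lay between -0.57 and 0.76.

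The largest value was that of the protease gene Atg4a, 0.44 ± 0.12 (adjusted p = 0.111, 0.0689 to 0.423 over the alternatives). For the scaffold gene Rb1cc1 it was 0.38 ± 0.09 (adjusted p = 0.0995), and without untreated db/db replicate 2 it was 0.46 and passed (adjusted p = 0.0426; 0.0327 to 0.382 over the alternatives). Both genes were higher in all 3 treated libraries than in any untreated db/db library. Among the ATG8 genes the differences ran from -0.08 for Map1lc3a (adjusted p = 0.694) to 0.19 for Map1lc3b (adjusted p = 0.450), with 0.16 for Gabarapl1, 0.11 for Gabarap and 0.06 for Gabarapl2. Sqstm1 differed by 0.05 ± 0.15 (adjusted p = 0.892); the signs of the Sqstm1 and Gabarapl2 differences turned under alternatives that moved the median of all genes by a like amount, such as upper-quartile factors (Sqstm1 -0.018 and Gabarapl2 -0.0074, with a shift of -0.064 for all genes). An adjusted p above 0.05 does not show that treated and untreated islets were alike.

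The composition of the families was compared between treated and untreated db/db islets by two-sided exact permutation tests, where p = 0.1 (adjusted p = 0.147) marks groups that do not overlap. In treated db/db islets Atg4a made up 24.7 ± 1.19% of the ATG4 sum per kilobase, against 21.1 ± 0.77% without treatment and 10.1 ± 0.94% in db/+ islets. Atg4b made up 32.9 ± 1.74% against 35.6 ± 0.29%. Treated and untreated libraries did not overlap for the shares of Atg4a and Atg4b, nor for that of Atg2a, which was 46.2 ± 2.65% of the ATG2 sum against 50.2 ± 1.17%. They did not overlap either for the summed CPM per kb of the ATG4 genes (43.2 ± 2.97 against 37.3 ± 2.11), the ATG2 genes (10.6 ± 0.45 against 9.57 ± 0.50) or the ATG16 genes (15.9 ± 1.007 against 14.4 ± 0.13), higher in treated islets. Wipi1 made up 46.9 ± 3.53% of the WIPI sum, against 46.2 ± 2.51% and 23.6 ± 1.96%, and treated and untreated libraries overlapped. Map1lc3a made up 3.94 ± 0.21% of the ATG8 sum against 4.52 ± 0.22%; treated and untreated libraries did not overlap, and both lay below the db/+ libraries. Apart from Atg2b, the rest of the ATG2 sum, all other shares and sums overlapped between treated and untreated libraries. Of all genes tested, 27.6% did not overlap in this comparison, 19% with treated islets higher.

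Treated db/db islets were also set against db/+ islets. Here 16 autophagy genes were higher, 14 lower and 6 not called, so 30 of 36 were called, where 65.2% of all genes tested were called, 32.8% higher and 32.5% lower, and the groups of 31 did not overlap, where 71% of all genes did not. Because this comparison and that of untreated db/db islets share the db/+ libraries, their values are given side by side and not as support for each other. In both, 12 of the same genes were higher and 13 of the same genes were lower, and none was called in opposite directions. The share of all genes called the same way in both was not counted, so these counts are not read as particular to autophagy genes. Called in untreated islets alone were Atg7 (-0.38 untreated, -0.29 treated) and Atg9a (-0.39, -0.23); called in treated islets alone were Atg10 (0.28, 0.57), Atg101 (-0.25, -0.34), Atg13 (0.19, 0.37), Atg14 (0.14, 0.41) and Atg2b (0.22, 0.47). None of these 7 differed between treated and untreated islets by edgeR's test. Atg12, Pik3c3, Sqstm1 and Ulk1 were called in neither. For treated islets, alternatives called Pik3c3 with upper-quartile factors (0.33, adjusted p = 0.0488), no filter (0.32, 0.0374), the sum of transcripts (0.32, 0.0360), only the 2 groups compared (0.30, 0.0175), and without untreated db/db replicate 1 (0.30, 0.0241) or 3 (0.30, 0.0236). With GC content adjusted for, Ulk1 (0.58, adjusted p = 0.000111) and, lower, Atg12 (-0.31, 0.0120) were called, and Sqstm1 was called without db/+ replicate 1 (0.26, 0.0398).

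The genes with large changes against db/+ islets are given with the value for untreated islets first and that for treated islets second. Map1lc3a stood at -1.84 ± 0.10 and -1.93 ± 0.10, Atg16l2 at -2.04 ± 0.14 and -1.86 ± 0.13, and Tfeb at -1.21 ± 0.21 and -1.32 ± 0.21. Atg4c stood at 1.41 ± 0.12 and 1.66 ± 0.12, and Atg4a at 0.81 ± 0.13 and 1.25 ± 0.13. Rb1cc1 stood at 0.56 ± 0.10 and 0.94 ± 0.10, Nbr1 at 0.69 ± 0.12 and 0.99 ± 0.12, and Ulk2 at 0.77 ± 0.14 and 1.02 ± 0.14. Adjusted p-values of these 8 genes against db/+ islets were at most 0.000425. Among the other ATG8 genes, Gabarap stood at -0.81 ± 0.12 and -0.70 ± 0.12, Gabarapl2 at 0.71 ± 0.14 and 0.77 ± 0.14, Gabarapl1 at 0.44 ± 0.15 and 0.60 ± 0.15, and Map1lc3b at 0.37 ± 0.13 and 0.56 ± 0.13. The calls on Gabarapl1 and Map1lc3b, which were lost without some libraries in untreated islets, held in treated islets under every alternative tried (adjusted p = 0.00397 and 0.00202). Wipi1 stood at 0.95 ± 0.15 and 1.14 ± 0.15, Atg3 at 0.65 ± 0.10 and 0.80 ± 0.10, Atg5 at 0.59 ± 0.14 and 0.76 ± 0.14, Atg4d at -1.03 ± 0.09 and -0.92 ± 0.09, Ulk4 at -1.10 ± 0.27 and -0.93 ± 0.27 and Atg2a at -0.73 ± 0.12 and -0.71 ± 0.12.

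Of the 5 genes called in treated islets alone, Atg13, Atg14, Atg10 and Atg101 each lost the call without at least 1 library: Atg13 without db/+ replicate 2 (0.32, adjusted p = 0.0687), db/+ replicate 3 (0.23, 0.0997) or treated replicate 3 (0.29, 0.0864); Atg14 without db/+ replicate 2 (0.27, 0.200), db/+ replicate 3 (0.38, 0.0914) or treated replicate 3 (0.27, 0.157); Atg10 without db/+ replicate 2 (0.48, 0.105), db/+ replicate 3 (0.33, 0.118), treated replicate 1 (0.57, 0.0588) or treated replicate 3 (0.52, 0.0759). For Atg101, leaving out any of 7 libraries did so, with the largest effect for db/+ replicate 1 (-0.19, adjusted p = 0.192). The call on Atg101 was also lost with DESeq2 (adjusted p = 0.0566), upper-quartile factors (0.0662), no filter (0.115) and only the 2 groups compared (0.0577). That on Atg14 was lost with the sum of transcripts (0.0703). With GC content adjusted for, Atg14 (0.0743), Atg10 (0.458) and Atg101 (0.553) were not called. Uvrag, called in both, lost the treated call without db/+ replicate 2 (0.33, adjusted p = 0.0680).

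Fold changes moved with base composition. GC content was taken from the longest transcript of each gene in an annotation of build GRCm38. The 12 genes that rose in untreated db/db islets had a median GC content of 46.2% (39.1 to 52.7%) and the 15 that fell one of 52.7% (45.0 to 63.2%). Across the 36 genes Spearman's rho between GC content and log2 fold change was -0.56 for untreated db/db against db/+, and across 15531 genes with a GC value it was -0.26; genes of 1 set of libraries are not independent. For treated against untreated islets these were -0.56 and -0.17. When each library's trend with GC content was removed before the edgeR test, 14 autophagy genes rose and 12 fell in untreated db/db islets. Over all 16761 genes tested, 5074 rose and 5122 fell with that adjustment. Map1lc3a still fell (-1.23, adjusted p = 9.64e-07), as did Atg16l2 (-2.09), Atg4d (-0.81), Gabarap (-0.81) and Tfeb (-0.59, adjusted p = 0.0312), and Wipi1, Atg4c (1.16), Ulk2 (0.60), Atg4a (0.54), Gabarapl2 (0.50) and Map1lc3b (0.41, adjusted p = 0.00932) still rose. Atg2a (-0.22, adjusted p = 0.117), Ulk3 (-0.33, 0.0546), Atg7 (-0.26, 0.0970) and Atg9a (-0.07, 0.535) were no longer called. Ulk1 (0.45, adjusted p = 0.000935), Atg13 (0.31, 0.0365) and, lower, Atg12 (-0.24, 0.0406) became called.

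**Figure D4:**
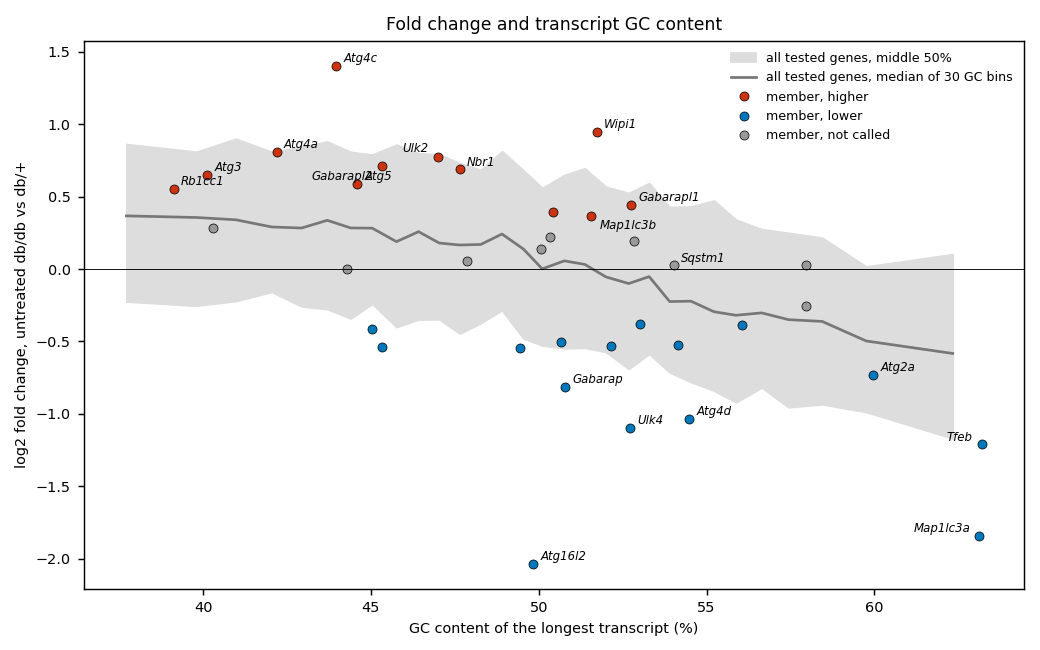
Log2 fold change of untreated db/db against db/+ islets (y axis) by GC content of the longest transcript (x axis, %) for 36 autophagy genes (points), with the median (line) and middle 50% (band) of all tested genes in 30 GC bins. Genes that rose have a median GC content of 46.2% and genes that fell one of 52.7%. Atg16l2, Atg4c, Wipi1, Atg4d, Gabarap and Ulk4 are among the genes that lie outside the band at their GC content. By its definition the band leaves out 50% of all tested genes, and it ends below the GC content of Map1lc3a and Tfeb.

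Other genes of the pathway were counted in lists chosen for their roles. Of 14 partners in initiation and the PI3K complexes, 6 rose and 6 fell in untreated db/db islets (median -0.04), where 31.3% of all genes tested rose and 32% fell. Ambra1, a scaffold that links ULK1 and Beclin 1, fell by 1.12 (SE 0.09, adjusted p = 7.38e-07), and Tecpr1, a tethering factor for autophagosomes, fell by 0.76 (SE 0.08). Nrbf2, a subunit of the ATG14 complex, rose by 1.013 (SE 0.131). Of 16 genes for fusion with the lysosome, 5 rose and 5 fell (median 0.04): Vps16 of the HOPS tether fell by 1.64 (SE 0.16), and the SNARE genes Stx7 and Snap29 rose by 0.68 (SE 0.09) and 0.96 (SE 0.13).

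Of 16 receptors outside the 3 described above, 9 rose, 4 fell and 3 were not called, with a median of 0.64, beside the 31.3% of all genes tested that rose and 32% that fell. The ER-phagy receptor gene Ccpg1 went from 185 ± 26.2 to 491 ± 63.7 CPM (mean ± SD; log2 fold change 1.41 ± 0.13), and the mitophagy receptor gene Fundc1 from 17.005 ± 1.91 to 41.0 ± 2.201 CPM (1.27 ± 0.10). Fkbp8, another mitophagy receptor gene, fell by 1.023 (SE 0.0986). Of 26 genes of TORC1 and its inputs, 6 rose and 10 fell (median -0.14): Sesn3, an inhibitor of TORC1, rose by 1.99 (SE 0.16), and Fnip2 and the TORC1 subunit gene Mlst8 fell by 1.37 (SE 0.09) and 1.07 (SE 0.10). Of 26 lysosomal genes with CLEAR elements, which TFEB is known to drive, 10 rose and 8 fell (median 0.09). Atp6ap1, an accessory subunit of the proton pump, rose by 1.22 (SE 0.14), and the chloride transporter gene Clcn7 and the peptidase gene Tpp1 fell by 0.73 (SE 0.08) and 0.95 (SE 0.11). The median over all genes tested was 0.02. The lists were chosen with earlier results known, so these counts are descriptions. Genes named from a list were the 3 called genes with the smallest p-values in it, and do not stand for the list.

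Between treated and untreated db/db islets, 0 genes passed edgeR's test in any of these 5 lists; the list medians ran from 0.12 to 0.20, against 0.07 for all genes tested. Against db/+ islets, treated db/db islets had 6 higher and 4 lower of 14 initiation partners, 7 and 3 of 16 fusion genes, 11 and 4 of 16 receptors, 8 and 10 of 26 TORC1 genes and 12 and 7 of 26 lysosomal genes, where 32.8% of all genes tested were higher and 32.5% lower. Among genes picked by the same rule, Sesn3 was 2.47 ± 0.16 above db/+ islets, Trp53inp1, which binds ATG8 proteins, 2.28 ± 0.22, and Ncoa4, the receptor for ferritin, 1.86 ± 0.17 (adjusted p = 1.06e-07, 7.60e-06 and 1.38e-06). Others so picked were lower: Vps16 stood at -1.70 ± 0.16, Fnip2 at -1.17 ± 0.09, Mlst8 at -1.07 ± 0.10, Ambra1 at -1.01 ± 0.09 and Clcn7 at -0.72 ± 0.08.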

How the data were processed

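RNA was purified on columns and made into directional libraries, per the labels' protocols, with 3 libraries in each of 3 groups. The deposited table holds raw read counts, per the file headers, with a row for each RefSeq transcript. The submitters' processing notes name cutadapt 1.9.1, HISAT2 2.2.1, featureCounts 2.0.0 and build GRCm39; no source used here gives the strand setting. Transcripts of a gene mostly carry nearly the same count (median ratio of lowest to highest total 0.948 over 11109 genes). So 1 transcript row per gene was kept, the one with the highest total. This did not hold for all autophagy genes with several transcripts, whose ratios ran from 0.178 for Becn1 to 1 for Atg4a. Low ratios were also found for Atg16l1 (0.298), Atg2a (0.377) and Ulk4 (0.533). Family sums and shares per kilobase rest on the count and length of the row kept, and their dependence on this choice was not tested. Genes with low counts were removed with filterByExpr, which left 16761 of 46316 genes. The 3 groups were fitted together with edgeR 4.0.16 (R 4.3.3; TMM, robust quasi-likelihood F-test, Benjamini-Hochberg adjustment over all genes tested). The script was tested on simulated counts. Gene sums per library give the depth; for genes of a few counts, counting error limits the precision.

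The 37 genes and all gene lists were chosen with earlier results of these data known, so they are described by counts and medians without a test of the list. Genes given with every library's value were those called against db/+ islets with an absolute log2 fold change of at least 0.58, with all ATG8 genes and Sqstm1 added. Family shares use CPM per kb of the transcript kept, and were compared by exact permutation tests. GC content and exon overlaps come from GENCODE M21 (GRCm38) and were matched by gene symbol; no coordinates were converted. Alternatives were DESeq2 1.42.0, upper-quartile factors, limma 3.58.1 voom, no filter, the sum of transcripts, the 2 compared groups alone, the replicate number as a block, each library left out and, chosen after seeing the data, offsets adjusted for GC content (lowess span 0.3). Figures were drawn with matplotlib 3.10.9.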

Additional observations from a re-analysis of the deposited data

How the results depend on the processing

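Of the 27 calls between untreated db/db and db/+ islets, 20 held under every alternative run; Atg2a, Atg7, Atg9a, Gabarapl1, Map1lc3b, Ulk3 and Uvrag did not. Of the 30 calls between treated db/db and db/+ islets, 23 held; Atg10, Atg101, Atg13, Atg14, Atg2a, Ulk3 and Uvrag did not. Leaving out 1 library, 9 to 16 autophagy genes rose and 14 to 15 fell for untreated db/db against db/+, 0 to 1 rose and 0 to 0 fell for treated against untreated db/db, and 12 to 17 rose and 13 to 15 fell for treated db/db against db/+. DESeq2 called 1 autophagy gene higher between treated and untreated islets. Over all genes that comparison, with 1 higher and 29 lower, gave 135 and 496 with DESeq2, 0 and 32 with upper-quartile factors, 0 and 7 with voom, 12 and 215 with no filter, 0 and 9 for the sum of transcripts, 1 and 26 with GC-adjusted offsets, and 0 and 0 with only the 2 groups compared; leaving out 1 library gave 0 to 67 higher and 6 to 371 lower. The cause was not tested. Over all genes, leaving out 1 library gave 4744 to 5867 higher and 4835 to 5415 lower for untreated db/db and 4740 to 5677 and 5037 to 5685 for treated db/db against db/+ islets.

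With the replicate number as a block, 11 autophagy genes were higher and 15 lower for untreated db/db against db/+, 0 and 0 for treated against untreated, and 16 and 13 for treated db/db against db/+, with Map1lc3b (0.36, adjusted p = 0.0512) losing its call in the first and Atg101 (-0.34, 0.0780) in the last; 1 and 115 of all genes passed for treated against untreated islets. Same-numbered samples correlated at -0.43 to 0.058 in their deviations from group means. Differently numbered samples were not set beside them, so whether the numbers pair the samples cannot be told.

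Signs turned as follows. For untreated db/db against db/+ these were Atg101 (0.16) and Pik3c3 (-0.0892) with GC-adjusted offsets, and Atg12 with DESeq2 (0.0254), upper-quartile factors (0.10), no filter (0.11), the sum of transcripts (0.0678) and only the 2 groups (0.0152); leaving out 1 library, Ulk1 ran from -6.37e-05 to 0.10, Pik3c3 from -0.0910 to 0.20, Atg12 from -0.0402 to 0.11 and Sqstm1 from -0.0396 to 0.29. For treated against untreated islets, single values were followed for Rb1cc1, Atg4a, the 5 ATG8 genes and Sqstm1, and for the other genes only the number above 0, which was 25 to 33 of all 36. Of those 8, Gabarapl2 turned with upper-quartile factors (-0.0074), no filter (-0.015), the sum of transcripts (-0.020), GC-adjusted offsets (-0.026) and only the 2 groups (-0.018), and Sqstm1 with upper-quartile factors (-0.018), no filter (-0.025), the sum of transcripts (-0.030) and only the 2 groups (-0.028); leaving out 1 library, they ran from -0.0188 to 0.0850 and from -0.0306 to 0.11. For treated db/db against db/+, Atg101 (from a called -0.34 to 0.10), Atg9a (0.10) and Atg12 (from 0.02 to a called -0.31, adjusted p = 0.0120) turned with GC-adjusted offsets; leaving out 1 library, Atg12 ran from -0.0825 to 0.0572 and Sqstm1 from -0.0591 to 0.26. Upper-quartile factors and no filter each moved the median of all genes by 0.11 for untreated db/db against db/+. Leaving out db/+ replicate 1 moved it by 0.086. Changes under these are read relative to such shifts. The genes that gained calls without db/+ replicate 1 moved further than that median: Sqstm1 from 0.02 to 0.29, Atg13 from 0.19 to 0.38, Atg10 from 0.28 to 0.66 and Atg2b from 0.22 to 0.38. The cause of these moves was not tested. For treated against untreated islets, upper-quartile factors, no filter, the sum of transcripts and only the 2 groups moved it by -0.064 to -0.076, about as far as Gabarapl2 and Sqstm1 moved. Atg9b was too low to be tested at this depth.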
